A study of Mus musculus with 24 samples.

Results

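The 10 genes described here were listed as transcription factors and regulators of the integrated stress response. They are Atf4, Atf5, Atf3, Ddit3, Cebpb, Cebpg, Nupr1, Trib3, Ppp1r15a and Stbd1. Stbd1 encodes a glycogen-binding membrane protein rather than such a factor or regulator, and it is kept in counts of the 10 genes. The genes were chosen by symbol, and 10 of the 10 were found among the 15161 genes with counted reads. The samples are 24 livers from C57BL6/J males, a common inbred strain, aged 4 months, and their RNA levels were read by sequencing. The groups of 6 libraries each were elemental MR, elemental control, casein MR and casein control, where MR is methionine restriction and "elemental" means that free amino acids replaced the protein of the diet. MR diets held 0.17% methionine and control diets 0.86%. Casein is the main milk protein, and the labels call the casein of the MR diet oxidized but not that of the casein control diet. The design text can instead be read as oxidized casein in both casein groups. If the sample labels are right, MR and oxidation cannot be told apart in the casein comparison. The labels name no mutation or drug in any group. Each library has a number of its own and is not stated to be a separate mouse, and so the p-values describe how far these samples spread and nothing wider.

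The integrated stress response slows protein synthesis when cells lack amino acids, meet viral RNA, lack heme or accumulate unfolded protein in the endoplasmic reticulum (ER). A sensor kinase for each of these signals phosphorylates the initiation factor eIF2, which lowers the translation of most mRNAs and raises that of a few, among them the mRNAs of ATF4 and ATF5. These basic leucine zipper (bZIP) factors, often paired with C/EBP proteins, bind CCAAT-enhancer-binding protein and ATF response elements (CARE) and raise genes of amino acid synthesis, transport and tRNA charging. In the liver the pathway responds to diets low in an essential amino acid. Because ATF4 and ATF5 are controlled at translation, their mRNA level does not measure the amount of protein.

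Library totals ran from 13.5 to 20.8 M reads, with group means of 16.5 ± 1.17 M in elemental MR, 17.2 ± 2.36 in elemental control, 17.4 ± 1.85 in casein MR and 16.0 ± 1.68 in casein control (SD, n = 6). Levels are given in CPM, read counts scaled to the size of the library. The summed level of the hepatocyte markers, of which 11 of 12 listed had a row, ran from 90510.4 to 98961 CPM in elemental MR against 113665 to 123742 CPM in elemental control, and from 68416 to 75731 CPM in casein MR against 103270.1 to 121327 CPM in casein control. Most of that sum was 1 gene, albumin (Alb). Alb averaged 62336 CPM in elemental MR, 79352 in elemental control, 44121 in casein MR and 71967 in casein control. At an adjusted p under 0.05 in edgeR, 2 of the 11 markers were lower with elemental MR (median log2 fold change -0.12). With casein MR 8 were lower (median -0.59), and 0 were higher in either comparison. Over all genes tested, 6.64% and 12.7% were lower. Summed cholangiocyte markers (7 of 9 with a row) ran from 20.7 to 33.5 CPM in elemental MR against 36.4 to 59.3 CPM in elemental control, and from 24.3 to 47.0 CPM in casein MR against 42.8 to 83.1 CPM in casein control. Summed stellate cell markers (15 of 15 with a row) ran from 490 to 542 CPM in elemental MR against 552 to 644 CPM in elemental control, without overlap, and from 495 to 690 CPM in casein MR against 561 to 621 CPM in casein control. Summed erythroid markers (9 of 9 with a row) had medians of 2793 CPM in elemental MR against 5993 CPM in elemental control and 1717 CPM in casein MR against 2753 CPM in casein control, with overlapping ranges. The part of these shifts in the results was not tested. The medians of the summed Kupffer cell and macrophage markers (15 of 15 with a row) were 674 CPM in elemental MR, 646 in elemental control, 702 in casein MR and 645 in casein control. Library C_MR_3438 of the casein MR group held skeletal muscle markers (14 of 14 with a row) at a sum of 2423 CPM, against 85.5 CPM or less in each of the other libraries, and casein MR results are therefore also given without it where a call, a count or a direction changes.

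With MR, 4 of the 10 genes were higher and 0 lower in each form of diet. Atf5, Trib3 and Nupr1 rose with both elemental MR and casein MR. Cebpg rose with elemental MR and Ppp1r15a with casein MR, whereas Atf4 itself, Atf3, Ddit3, Cebpb and Stbd1 were not called in either comparison. A gene was called at an adjusted p under 0.05 in edgeR's quasi-likelihood test, with the adjustment over the 13441 genes tested, and each of the 10 genes passed the filter on low counts. Over the genes tested, 13.4% were called with elemental MR (6.78% higher and 6.64% lower) and 23.3% with casein MR (10.6% higher and 12.7% lower). The median log2 fold change of the 10 genes was 0.25 with elemental MR and 0.36 with casein MR, while that of the genes tested was -0.0028 and 0.0097. Without C_MR_3438, 4 of the 10 were higher and 0 lower with casein MR. In bulk tissue, fewer cells of a type and less RNA per cell cannot be told apart.

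**Figure D1:**
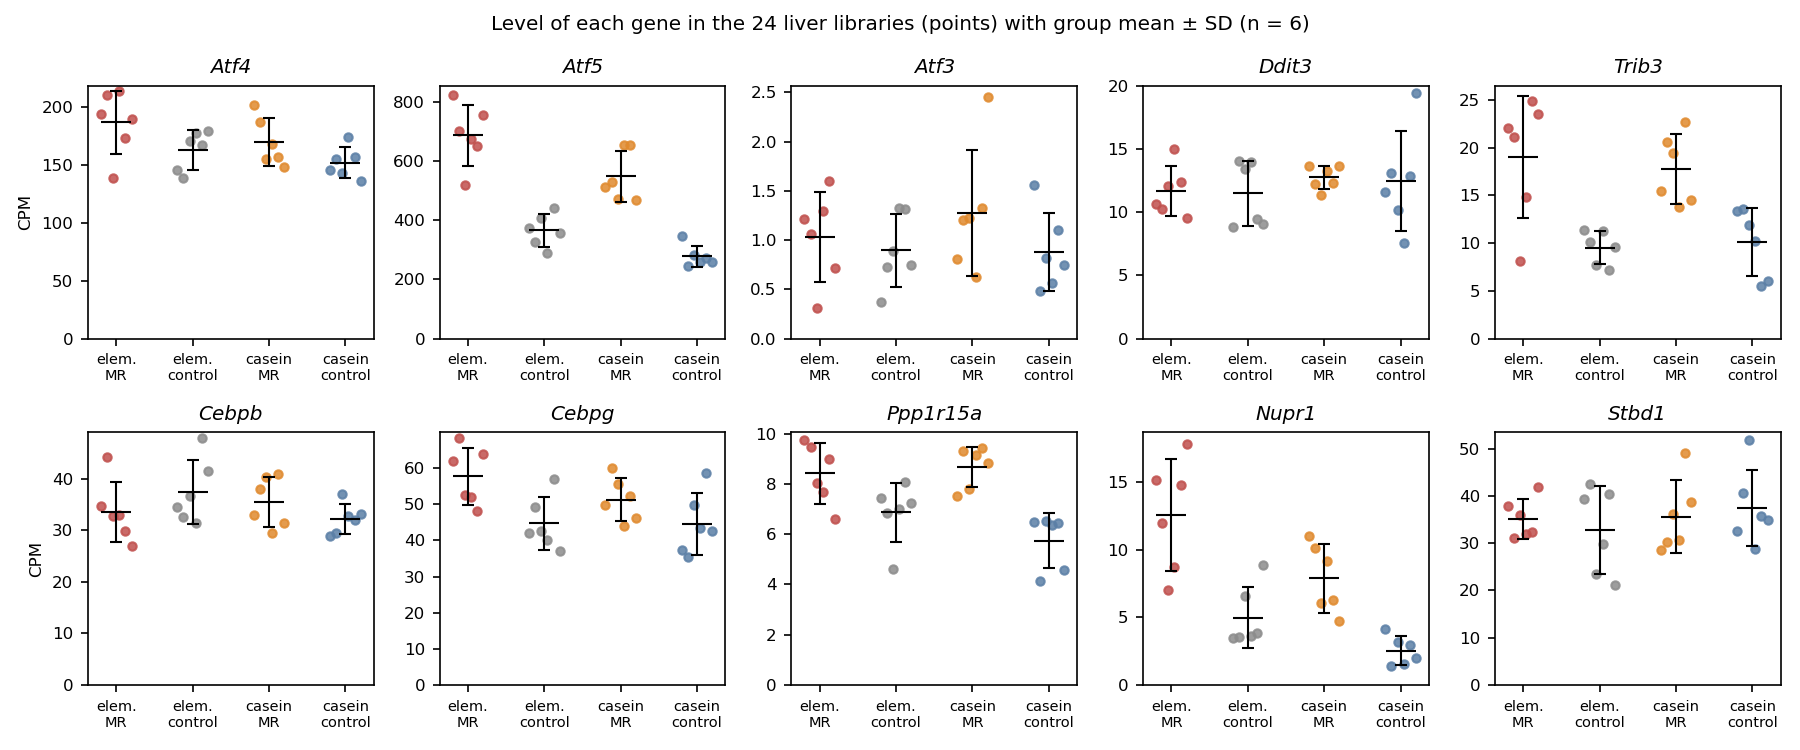
Level (CPM, linear axis from 0) of the 10 genes in the 24 libraries, with points for libraries and bars for the group mean ± SD (n = 6). The MR points of Atf5 lie above the control points in both forms of diet, and those of Trib3, Ppp1r15a and Nupr1 do so on casein, while the groups of Atf4, Ddit3, Cebpb and Stbd1 overlap.

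By the GENCODE annotation (GRCm38; the build used for counting is not given), Atf5, Cebpg, Ppp1r15a and Nupr1 lie on chromosome 7, Trib3 and Cebpb on chromosome 2, Atf3 on chromosome 1, Stbd1 on chromosome 5, Ddit3 on chromosome 10 and Atf4 on chromosome 15. Levels per kilobase were divided by the length of all annotated exons of a gene, also those of transcripts that may not be made in liver. Different genes can therefore be compared only roughly, and the order of close neighbours is uncertain. Per kilobase of exon, Atf5 stood highest of the 10 genes. Its level was 345 ± 51.8 CPM per kb in elemental MR, 183 ± 27.6 in elemental control, 275 ± 42.8 in casein MR and 139 ± 17.7 in casein control (SD, n = 6). Atf4 came next, at 79.1 ± 11.7, 69.1 ± 7.30, 71.8 ± 8.85 and 64.3 ± 5.73 CPM per kb in the same groups. In elemental MR they were followed by Cebpb (22.4 ± 3.90), Stbd1 (15.9 ± 1.90), Cebpg (10.3 ± 1.42), Trib3 (8.97 ± 3.01), Ddit3 (6.82 ± 1.15), Nupr1 (5.01 ± 1.64) and Ppp1r15a (2.87 ± 0.41), and Atf3 was lowest at 0.480 ± 0.212 CPM per kb. The ranges of mean ± SD overlapped for the neighbours Cebpg and Trib3, Trib3 and Ddit3, and Ddit3 and Nupr1. The order differed between MR and control only low down: Trib3 stood above Ddit3 and Nupr1 above Ppp1r15a in both MR groups, and the reverse held in both control groups. Nupr1 and Ppp1r15a lay within their SDs of each other in casein MR and in elemental control, and the ranges of mean ± SD of Trib3 and Ddit3 overlapped in each of the 4 groups.

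Promoter sequence was available for 10 of the 10 genes from RefSeq (GRCm38.p6), as the 250 bases before and 50 after each annotated start, with a pair of starts for Atf5. Both strands were searched for the CARE letters TGATGCAA and the looser TGATGNAA that contains them, the cyclic AMP response element (CRE) TGACGTCA, and the composite TGACGCAA. Nupr1 and Atf3 each held a full CARE on the reverse strand, with its first base at position -110 from the start, a motif present in 0.895% of the 32851 promoters. Ppp1r15a held a CRE at position -12 (1.79% of promoters). Trib3 matched the looser letters at position 15 (3.97% of promoters), past the stretch upstream of its start (which is not the start of a GENCODE transcript), and the composite was found in none of the members' promoters (0.49% of promoters). The letters CCACG, part of the ER stress response element, were searched too and stood in promoters of each gene but Atf3, Ddit3 and Trib3, but so short a motif was present in 32.8% of promoters. The upstream stretches of Nupr1, Atf3 and Ppp1r15a are shown because they carry these letters, in capitals, and the first start of Atf5 because that gene rose with the smallest p of the 10 and its promoters held none of these 4 motifs. A match describes the letters in the window and is not evidence of binding. The stretches lie on the minus strand at chr7:126625471-126625720 (Nupr1), chr1:191183334-191183583 (Atf3), chr7:45526269-45526518 (Ppp1r15a) and chr7:44816659-44816908 (Atf5).
Nupr1: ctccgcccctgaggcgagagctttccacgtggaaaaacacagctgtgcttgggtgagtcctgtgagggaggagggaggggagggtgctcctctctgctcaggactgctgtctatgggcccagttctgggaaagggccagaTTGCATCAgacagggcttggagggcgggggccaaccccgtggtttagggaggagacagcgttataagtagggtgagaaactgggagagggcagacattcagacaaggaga
Atf3: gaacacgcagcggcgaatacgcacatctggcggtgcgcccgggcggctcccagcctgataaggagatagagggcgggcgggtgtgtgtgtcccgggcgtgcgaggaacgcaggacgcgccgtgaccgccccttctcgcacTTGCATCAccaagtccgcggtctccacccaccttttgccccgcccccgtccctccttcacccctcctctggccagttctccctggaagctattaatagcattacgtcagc
Ppp1r15a: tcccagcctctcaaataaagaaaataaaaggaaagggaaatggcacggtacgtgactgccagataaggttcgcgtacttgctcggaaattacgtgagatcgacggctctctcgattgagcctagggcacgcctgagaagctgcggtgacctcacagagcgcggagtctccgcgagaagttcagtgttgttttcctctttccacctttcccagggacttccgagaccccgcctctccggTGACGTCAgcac
Atf5: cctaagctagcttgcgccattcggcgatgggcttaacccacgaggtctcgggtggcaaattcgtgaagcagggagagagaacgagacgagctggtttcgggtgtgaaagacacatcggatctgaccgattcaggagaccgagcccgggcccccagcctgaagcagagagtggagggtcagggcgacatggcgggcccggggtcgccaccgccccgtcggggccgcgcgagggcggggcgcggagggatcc

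Atf4 (ENSMUSG00000042406) encodes the main transcriptional effector of the pathway, and the gene spans 80255184 to 80257541 on the plus strand. The exon length behind its level per kb takes in a transcript with retained introns, which lowers that level. The lowest, median and highest libraries held 139, 192 and 213 CPM of it in elemental MR, against 138, 169 and 179 CPM in elemental control. In casein MR they held 148, 162 and 201 CPM, against 136, 150.2 and 174 CPM in casein control. The groups overlapped in both comparisons, although 4 of 6 elemental MR libraries lay above the highest elemental control. The log2 fold change was 0.19 ± 0.09 with elemental MR (SE; 95% interval -0.00030 to 0.39, adjusted p = 0.194) and 0.16 ± 0.09 with casein MR (-0.04 to 0.35, adjusted p = 0.253). With elemental MR, Atf4 stayed uncalled in 23 of 24 fits that each left out 1 library, and in each of 9 other alternatives. The exception was the fit without E_MR_3416, the lowest of its group, with a value of 0.27 (adjusted p = 0.0438).

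Atf5 (ENSMUSG00000038539) encodes a relative of ATF4 that is abundant in liver and whose mRNA is likewise translated more when eIF2 is phosphorylated. Elemental MR libraries held 518, 687 and 824 CPM (lowest, median and highest), against 289, 364 and 441 CPM in elemental control. Casein MR libraries held 468, 520.2 and 654 CPM, against 245, 266 and 345 CPM in casein control. Neither pair of groups overlapped. The log2 fold change was 0.91 ± 0.11 with elemental MR (SE; 95% interval 0.68 to 1.15, adjusted p = 2.99e-06) and 0.98 ± 0.11 with casein MR (0.75 to 1.22, adjusted p = 2.26e-07). An exact permutation test of the 6 against 6 libraries gave the smallest p it allows, 0.00216, in each comparison. With casein MR, Trib3, Ppp1r15a and Nupr1 reached that exact p too. In the edgeR test, Atf5 had the smallest p of the 10 genes in both comparisons. Atf5 also overlaps exons of Nup62 and Il4i1 on the other strand by 82 bases, but those genes held 4944 and 289 reads over the 24 libraries, against 193910 for Atf5.

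Atf3 (ENSMUSG00000026628), a bZIP repressor induced quickly by many stresses, was close to the limit of detection, with 5 to 54 reads per library. Its levels were 0.312, 1.14 and 1.6 CPM in elemental MR, against 0.370, 0.821 and 1.33 CPM in elemental control. They were 0.620, 1.21 and 2.46 CPM in casein MR, against 0.486, 0.786 and 1.55 CPM in casein control. The groups overlapped widely. The log2 fold change was 0.22 ± 0.37 (SE; adjusted p = 0.776) with elemental MR and 0.52 ± 0.36 (adjusted p = 0.343) with casein MR, with 95% intervals of -0.55 to 0.98 and -0.23 to 1.27, so at this depth the interval with casein MR takes in a 2-fold rise. The highest library, at 2.46 CPM, was C_MR_3438, the one with muscle transcripts, and the casein MR value without it was 0.22 (adjusted p = 0.739).

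Ddit3 (ENSMUSG00000025408) encodes CHOP, the factor that links prolonged stress to cell death genes. It held 9.59, 11.4 and 15.1 CPM in elemental MR, against 8.87, 11.5 and 14.1 CPM in elemental control. In casein MR it held 11.4, 12.8 and 13.7 CPM, against 7.61, 12.2 and 19.4 CPM in casein control, so the casein MR libraries lay inside the range of their controls. The log2 fold changes were 0.03 ± 0.16 (SE; 95% interval -0.31 to 0.36, adjusted p = 0.949) and 0.04 ± 0.16 (-0.29 to 0.38, adjusted p = 0.893) with elemental and casein MR. Ddit3 shares 105 exonic bases on its own strand with another annotated gene of the same name, which had no row among the counted genes. It shares 68 exonic bases on the opposite strand with Mars, the methionyl-tRNA synthetase gene, which held 23614 reads in all against 4879 for Ddit3. Mars rose by 0.57 with elemental MR (adjusted p = 3.33e-04) and by 0.32 with casein MR (adjusted p = 0.0254). Whether counting used strand is not given in the sources, and the source of reads in those bases cannot be told apart.

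Of the C/EBP factors, Cebpb (ENSMUSG00000056501), a regulator of acute phase and metabolic genes in liver, held 27.0, 32.9 and 44.2 CPM in elemental MR, against 31.4, 35.7 and 48.0 CPM in elemental control. It held 29.5, 35.6 and 41.0 CPM in casein MR, against 28.9, 32.4 and 37.0 CPM in casein control. The values overlapped in both, and the log2 fold changes of -0.16 ± 0.11 (SE; adjusted p = 0.405) with elemental MR and 0.14 ± 0.11 (adjusted p = 0.419) with casein MR had opposite signs without a call in either. Cebpb shares 312 exonic bases on the opposite strand with Tmem189, which held 3758 reads in all against 14042 for Cebpb.

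Cebpg (ENSMUSG00000056216) encodes C/EBP gamma, a dimer partner of ATF4. Its levels were 48.2, 57.2 and 68.2 CPM in elemental MR, against 37.0, 42.3 and 57.1 CPM in elemental control. They were 43.9, 51.0 and 60.1 CPM in casein MR, against 35.3, 43.0 and 58.6 CPM in casein control. The groups overlapped in both comparisons, with 3 of 6 elemental MR libraries and 1 of 6 casein MR libraries above the highest control. The log2 fold change was 0.37 ± 0.12 with elemental MR (SE; 95% interval 0.13 to 0.61, adjusted p = 0.0368) and 0.20 ± 0.12 with casein MR (-0.04 to 0.44, adjusted p = 0.240). The call with elemental MR was lost when any 1 of 7 libraries was left out, namely E_C_3401, E_C_3418, E_C_3427, E_C_3430, E_MR_3403, E_MR_3405 or E_MR_3424, with a highest adjusted p of 0.0988. Cebpg shares 73 exonic bases on its own strand with Gm44836, which held 2219 reads against 20080 for Cebpg.

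Nupr1 (ENSMUSG00000030717) encodes a small stress-induced cofactor of transcription and had the largest fold change of the 10 genes. It held 7.05, 13.4 and 17.9 CPM in elemental MR, against 3.45, 3.75 and 8.88 CPM in elemental control. In casein MR it held 4.73, 7.76 and 11.0 CPM, against 1.38, 2.50 and 4.17 CPM in casein control. The casein groups did not overlap, and 4 of 6 elemental MR libraries lay above the highest elemental control. Nupr1 rose by 1.33 ± 0.28 on the log2 scale with elemental MR (SE; 95% interval 0.77 to 1.90, adjusted p = 0.00143) and by 1.61 ± 0.30 with casein MR (1.0 to 2.23, adjusted p = 1.72e-04), and by 1.73 with casein MR without C_MR_3438 (adjusted p = 8.61e-05). A related gene, Nupr1l, held 398 reads in all, and reads may have been split between these genes.

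Trib3 (ENSMUSG00000032715) encodes a pseudokinase that is raised by ATF4 and CHOP and in turn inhibits them. Its levels were 8.11, 21.6 and 24.9 CPM in elemental MR, against 7.20, 9.84 and 11.3 CPM in elemental control. They were 13.8, 17.5 and 22.7 CPM in casein MR, against 5.53, 11.0 and 13.5 CPM in casein control. On casein the groups did not overlap, while on elemental diets 5 of 6 MR libraries lay above the highest control and E_MR_3416 lay among the controls. Trib3 rose by 1.0 ± 0.23 on the log2 scale with elemental MR (SE; 95% interval 0.53 to 1.47, adjusted p = 0.00351) and by 0.81 ± 0.23 with casein MR (0.34 to 1.28, adjusted p = 0.00957). The casein MR call was lost with 1 surrogate variable in the model, at 0.70 (adjusted p = 0.111).

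Ppp1r15a (ENSMUSG00000040435) encodes GADD34, the stress-induced subunit that brings protein phosphatase 1 to eIF2 and so ends the response. It held 6.60, 8.52 and 9.77 CPM in elemental MR, against 4.63, 7.12 and 8.08 CPM in elemental control. In casein MR it held 7.51, 8.99 and 9.44 CPM, against 4.13, 6.40 and 6.52 CPM in casein control. The casein groups did not overlap, and 3 of 6 elemental MR libraries lay above the highest elemental control. The log2 fold change was 0.59 ± 0.13 with casein MR (SE; 95% interval 0.32 to 0.86, adjusted p = 0.00138) and 0.29 ± 0.13 with elemental MR (0.02 to 0.55, adjusted p = 0.157). With 1 surrogate variable the casein MR value was 0.31 (adjusted p = 0.178).

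The constitutive counterpart Ppp1r15b and the eIF2 kinases were not called in either MR comparison. Eif2ak4, which encodes the amino acid sensor GCN2, changed by a log2 value of 0.11 with elemental MR (SE 0.10; adjusted p = 0.509) and 0.22 ± 0.10 (adjusted p = 0.118) with casein MR. Its lowest and highest levels were 7.28 and 9.05 CPM in elemental MR, against 6.41 and 8.44 CPM in elemental control, and 6.90 and 9.16 CPM in casein MR, against 5.78 and 7.59 CPM in casein control. The groups of this kinase overlapped in both. Eif2ak3, the ER stress kinase PERK, stood at -0.17 ± 0.19 (adjusted p = 0.654) and -0.04 ± 0.19 (adjusted p = 0.929) with elemental and casein MR. Eif2ak2, the RNA-sensing kinase PKR, stood at 0.28 ± 0.11 (adjusted p = 0.107) and 0.24 ± 0.11 (adjusted p = 0.125).

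Stbd1 (ENSMUSG00000047963) encodes a glycogen-binding membrane protein that tethers glycogen to the ER and to autophagic vesicles. Its levels were 31.2, 34.2 and 42.0 CPM in elemental MR, against 21.1, 34.6 and 42.6 CPM in elemental control. They were 28.5, 33.4 and 49.2 CPM in casein MR, against 28.9, 35.3 and 51.9 CPM in casein control. The groups overlapped almost throughout. The log2 fold change was 0.10 ± 0.16 with elemental MR (SE; 95% interval -0.23 to 0.44, adjusted p = 0.759) and -0.07 ± 0.16 with casein MR (-0.40 to 0.26, adjusted p = 0.811). Of 26 tested genes of glycogen metabolism and glycophagy, 3 were higher and 2 lower with elemental MR (median -0.03) and 4 higher and 7 lower with casein MR (median -0.06; 4 and 6 without C_MR_3438). Over all genes tested, 13.4% and 23.3% were called. The glycogen phosphorylase gene Pygl fell by 0.47 with elemental MR and by 0.78 with casein MR (adjusted p = 1.25e-04 and 1.69e-08), and the lysosomal glucosidase gene Gaa rose by 0.43 and 0.52 (adjusted p = 6.66e-06 and 9.65e-08).

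**Figure D2:**
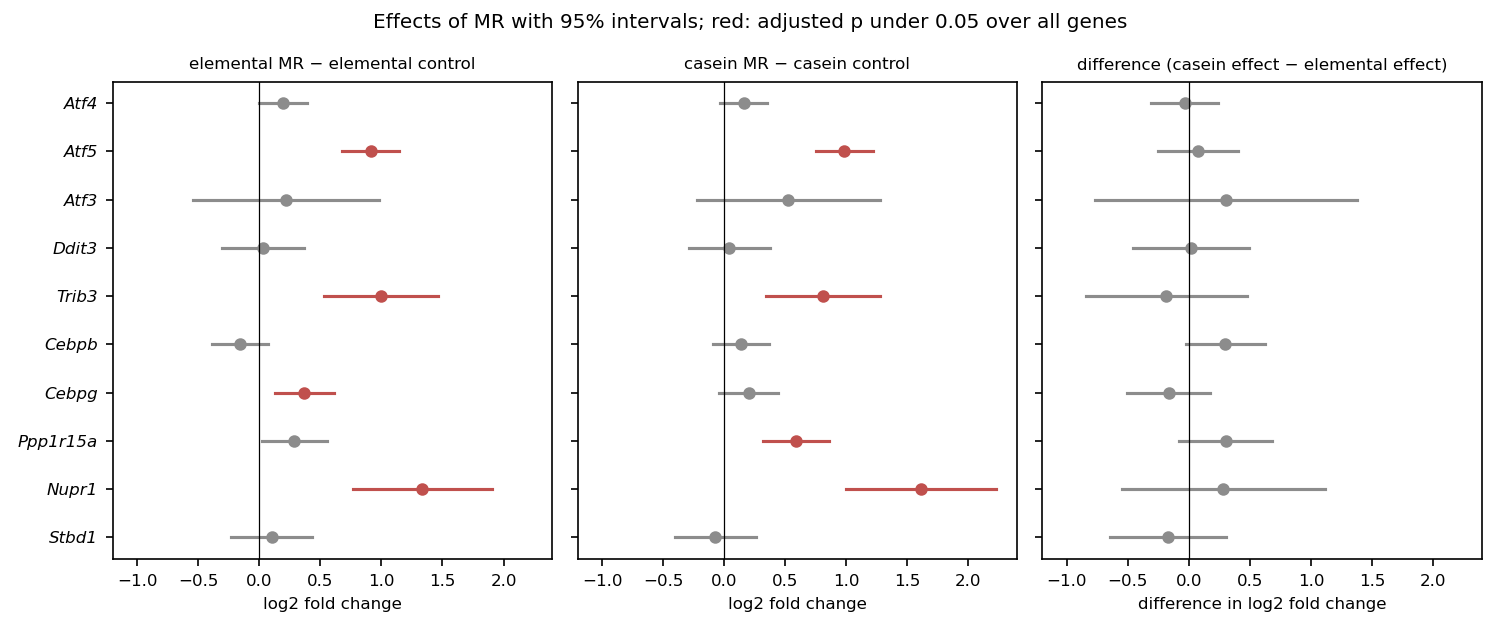
Log2 fold change with its 95% interval for each of the 10 genes with elemental MR (left), with casein MR (middle) and for the casein effect minus the elemental effect (right), from the fit over 24 libraries; red marks an adjusted p under 0.05. Atf5, Trib3 and Nupr1 are red in the left and middle panels, Cebpg in the left and Ppp1r15a in the middle, and none is red on the right.

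The casein and elemental MR effects were compared directly, because a call in one comparison and not in the other does not show a difference. In this test, 0 of the 10 genes were called by edgeR at an adjusted p under 0.05, and 0 had an unadjusted p under 0.05, where 2.34% of the genes tested were called. The DESeq2 and limma-voom tests also called 0 of the 10. The casein effect minus the elemental effect was 0.30 ± 0.18 for Ppp1r15a (SE; 95% interval -0.08 to 0.68, adjusted p = 0.560), -0.17 ± 0.17 for Cebpg (-0.51 to 0.18, adjusted p = 0.777) and 0.30 ± 0.16 for Cebpb (-0.03 to 0.62, adjusted p = 0.460). For the genes called with both forms of MR it was 0.07 ± 0.16 for Atf5 (-0.26 to 0.40), -0.19 ± 0.32 for Trib3 (-0.85 to 0.47) and 0.28 ± 0.40 for Nupr1 (-0.55 to 1.11). Of these 3 genes, Atf5 had the narrowest interval and Nupr1 the widest.

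The forms of diet were also compared with each other, casein control with elemental control and casein MR with elemental MR. On the control diets 0 of the 10 genes were called, where 0.104% of genes were, and on the MR diets 0 were called, where 6.50% of genes were. Atf5 and Nupr1 had unadjusted p-values under 0.05 in both, and no other member did. For Nupr1 the log2 difference was -0.95 ± 0.31 in casein control against elemental control (SE; adjusted p = 0.213) and, in casein MR against elemental MR, -0.67 ± 0.26 (adjusted p = 0.139). For Atf5 the values were -0.40 ± 0.11 (adjusted p = 0.165) and -0.33 ± 0.11 (adjusted p = 0.0849). The Atf5 difference between the MR diets passed with limma-voom (-0.35, adjusted p = 0.0479) and without E_MR_3416 (-0.40, adjusted p = 0.0315), C_MR_3431 (-0.38, adjusted p = 0.0473) or C_MR_3433 (-0.38, adjusted p = 0.0460). These contrasts share libraries with the MR comparisons.

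Single known ATF4 targets reached larger fold changes than any of the 10 genes. Of 57 tested targets, 32 were higher and 1 lower with elemental MR (median log2 fold change 0.44) and 33 higher and 3 lower with casein MR (median 0.40; 34 higher and 3 lower without C_MR_3438). Over all genes tested, 6.78% were higher and 6.64% lower with elemental MR, and 10.6% higher and 12.7% lower with casein MR. Asparagine synthetase (Asns) held 58.0 to 80.4 CPM in elemental MR, against 3.67 to 10.4 CPM in elemental control, and 50.0 to 72.3 CPM in casein MR, against 0.763 to 3.56 CPM in casein control. It is a textbook CARE gene, and its groups lay far apart. Its log2 fold change was 3.23 ± 0.20 with elemental MR and 5.01 ± 0.24 with casein MR (SE), and the difference of these effects was itself called (1.78 ± 0.31, adjusted p = 0.00155). The mean Asns level in casein MR, 62.3 CPM, lay below the 70.6 CPM of elemental MR. The casein control mean, 1.97 CPM, lay below the 7.57 CPM of elemental control. The serine synthesis gene Psat1 (3.98 and 5.19), the lipoprotein receptor gene Vldlr (2.50 and 3.88) and the glycyl-tRNA synthetase gene Gars (0.94 and 0.82) were the other targets with the smallest p in both. The difference of the effects was called for Vldlr too (1.39 ± 0.26, adjusted p = 0.00238), and for no other target. None of the 10 listed genes had a called difference. The targets that fell were Cebpa (-0.27 with elemental MR and -0.47 with casein MR) and, with casein MR, the autophagy genes Atg5 (-0.34) and Atg3 (-0.22), named here after their values were seen.

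Upstream of these targets, of 23 tested eIF2 kinases, initiation factors and their regulators, 3 were higher and 1 lower with elemental MR (median 0.04) and 3 higher and 2 lower with casein MR (median -0.00). These 4 and 5 of 23 are close to the 13.4% and 23.3% called over all genes tested. Impact, which encodes an inhibitor of GCN2 activation, held 6.77 to 8.90 CPM in elemental MR, against 5.19 to 6.90 CPM in elemental control, and 9.56 to 16.8 CPM in casein MR, against 5.74 to 6.72 CPM in casein control. The casein groups of Impact did not overlap, and the elemental groups overlapped at their edges. Impact rose by 0.39 ± 0.13 (SE; adjusted p = 0.0446) and by 1.01 ± 0.13 (adjusted p = 8.20e-07). Eif2s2, a subunit of eIF2, rose by 0.36 and 0.30, Eif5 by 0.27 and 0.25, and Dnajc3, an inhibitor of the kinases PERK and PKR, fell by 0.26 and 0.28 with elemental and casein MR.

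Of 37 other bZIP factors tested, 4 were higher and 3 lower with elemental MR (median -0.06) and 4 higher and 5 lower with casein MR (median 0.03; 3 higher and 6 lower without C_MR_3438). These 7 and 9 of 37 stand beside 13.4% and 23.3% called over all genes tested. Mafg (0.40 and 0.48) and Nfe2l1 (0.32 with elemental MR) rose. Atf1 rose by 0.26 with elemental MR, and Hlf fell by 0.47 with casein MR. Their means moved the same way in the other comparison. In casein MR against casein control, Nfe2l1 averaged 73.6 against 60.6 and Atf1 24.6 against 21.7 CPM. Hlf averaged 36.3 CPM in elemental MR against 45.7 CPM in elemental control. Cebpa, the C/EBP factor of mature hepatocytes, fell as given above.

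Of 16 CHOP targets and apoptosis genes tested, 1 was higher and 0 lower with elemental MR (median -0.13). With casein MR 2 were higher and 0 lower (median -0.04). Over all genes tested, the higher calls were 6.78% and 10.6% and the lower calls 6.64% and 12.7%. A list of 16 genes is too short to tell these counts from those shares. The higher genes of this list were the ER oxidase gene Ero1l (0.31 and 0.38; adjusted p = 0.0432 and 0.00750) and, with casein MR, the cell death gene Bcl2l11 (0.66, adjusted p = 0.00316). The ER chaperone genes that ATF6 and XBP1 raise in ER stress went down. Of 25 tested, 0 were higher and 17 lower with elemental MR (median -0.43) and 0 higher and 17 lower with casein MR (median -0.45; 0 and 16 without C_MR_3438). Over all genes tested, 6.64% were lower with elemental MR and 12.7% with casein MR. The chaperone cofactor Sdf2l1 held 15.2 to 27.5 CPM in elemental MR, against 38.1 to 55.9 CPM in elemental control, and its log2 fold change was -1.19 ± 0.16 (SE; adjusted p = 6.66e-06). The disulfide isomerase Pdia6 fell by 0.70 with elemental MR and by 0.75 with casein MR, the secreted factor Manf by 1.09 and Creld2 by 1.28 with elemental MR, and the folding genes P4hb by 0.56, Calr by 0.52 and Edem1 by 0.53 with casein MR. Genes given for 1 comparison also had lower MR means in the other. In casein MR against casein control, Sdf2l1 averaged 19.5 against 35.2, Manf 74.8 against 119.7 and Creld2 14.5 against 25.1 CPM. In elemental MR against elemental control, P4hb averaged 570 against 677, Calr 668 against 861 and Edem1 61.6 against 83.6 CPM.

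**Figure D3:**
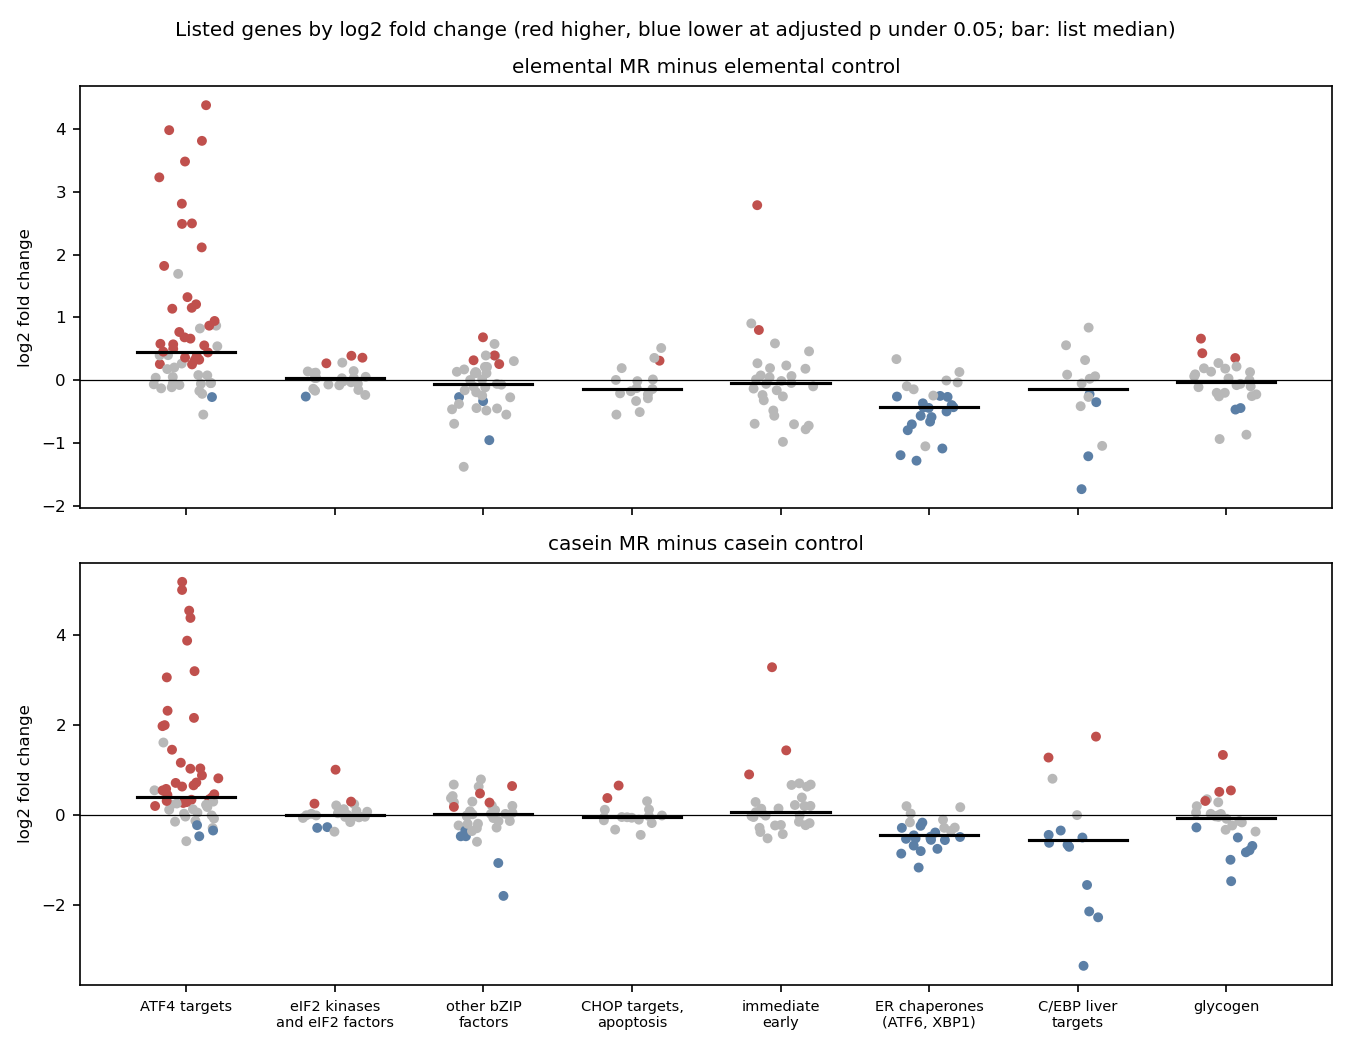
Log2 fold change of every tested gene of 8 lists with elemental MR (top) and casein MR (bottom); points are genes, red those called higher and blue those called lower at an adjusted p under 0.05, and bars mark list medians. Most ATF4 targets lie above 0 (medians 0.44 and 0.40) and most ER chaperones below it (medians -0.43 and -0.45).

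Immediate early genes and C/EBP targets of the liver stand beside Atf3, Cebpb and Cebpg as neighbours of the response. Of 29 tested immediate early genes, 2 were higher and 0 lower with elemental MR (median -0.04) and 3 higher and 0 lower with casein MR (median 0.07). Without C_MR_3438 the counts were equal and the casein MR median was -0.0091. The higher counts are close to the 6.78% and 10.6% called higher over all genes tested, where 6.64% and 12.7% were lower. Gadd45b, a stress sensor gene, rose by 2.79 ± 0.41 and 3.29 ± 0.42 (SE; adjusted p = 2.48e-05 and 1.04e-06), and Ier3 rose by 0.80 and 1.44. Sgk1 rose with casein MR (0.91, adjusted p = 0.00448), and had 0.59 with elemental MR (adjusted p = 0.1005). Atf3, itself an immediate early gene, was not called. Of 14 C/EBP targets, 0 were higher and 4 lower with elemental MR (median -0.14) and 2 higher and 10 lower with casein MR (median -0.56), where the acute phase gene Orm1 fell by 1.73 and by 3.35. Lower calls over all genes tested were 6.64% with elemental MR and 12.7% with casein MR. Ucp2, a mitochondrial carrier gene, rose by 1.75 ± 0.15 with casein MR (SE; adjusted p = 2.54e-09), and the casein effect minus the elemental effect was 1.43 ± 0.22 (adjusted p = 3.42e-04). Alb belongs to this list and to the hepatocyte markers and fell by 0.35 and 0.71.

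Libraries of a group varied together only in part. In the elemental MR group, E_MR_3416 was the lowest of the 6 libraries for 5 of the 10 genes, namely Atf4 (139 CPM), Atf5 (518 CPM), Atf3 (0.312 CPM), Trib3 (8.11 CPM) and Nupr1 (7.05 CPM). It was the lowest for 13 of the 57 ATF4 targets and for 16.7% of the genes tested, and its Asns level of 75.1 CPM lay above the group's median. In that group E_MR_3420 was the lowest library for 26 of the 57 targets and for 0 of the 10 genes. In the casein MR group, C_MR_3438 was the lowest for 24 of the 57 targets and for 3 of the 10 genes. Other libraries stood at an end of their group about as often: C_C_3413 was the lowest of casein control for 5 of the 10 genes, C_MR_3433 the highest of casein MR for 5 and C_MR_3431 the lowest of casein MR for 4.

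**Figure D4:**
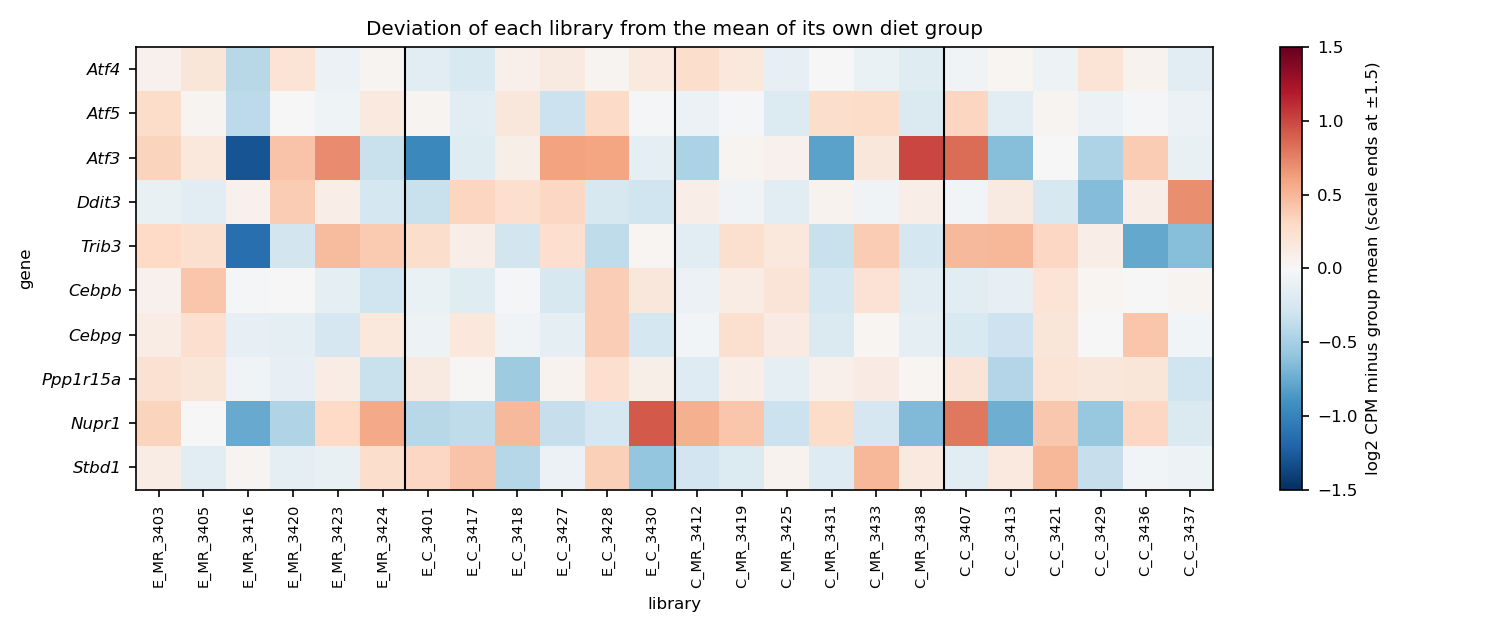
Deviation of each library from the mean of its own diet group in log2 CPM (colour, scale ends at ±1.5), with the 10 genes as rows and the 24 libraries as columns, groups separated by lines. E_MR_3416 shows the deepest negative values for Trib3 and Atf3, and C_MR_3438 and C_C_3407 the highest values of Atf3.

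Deviations from group means were also compared between genes over the 24 libraries, with Pearson's r and Spearman's rho and permutations within groups. Of 45 pairs, 31 had a positive r, the median r was 0.149, and 0 passed an adjusted p of 0.05 by either measure, with 3 under an unadjusted p of 0.05 by r. Atf5 and Nupr1 had r = 0.53 (permutation p = 0.0127, adjusted p = 0.190) and rho = 0.54 (permutation p = 0.0113, adjusted p = 0.206), and r was 0.39 without E_MR_3416 and C_C_3407, the libraries farthest from the median of Atf5. Cebpb and Cebpg had r = 0.52 (permutation p = 0.0113, adjusted p = 0.190) and rho = 0.50 (permutation p = 0.0167, adjusted p = 0.206), and r was 0.33 without E_MR_3405 and E_C_3428. Both relations were weaker without those libraries. Atf4 and Stbd1 went opposite ways, with r = -0.53 (permutation p = 0.00652, adjusted p = 0.190) and rho = -0.64 (permutation p = 0.00210, adjusted p = 0.0945), and r was -0.56 without E_MR_3416 and E_C_3417. The genes of a pair come from the same libraries and share their depth.

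For each of the 10 genes, the 3 genes with the most similar profile were taken by the root mean square (RMS) difference in log2 CPM, after removal of each gene's mean over the 24 libraries, among 10038 candidates. Atf5 was followed most closely by Creg1 (0.244), App (0.253) and Gclc (0.259), where the SD of Atf5 itself was 0.553. Creg1 averaged 1341 CPM in elemental MR, 750.6 in elemental control, 1399 in casein MR and 624 in casein control, higher in both MR groups than in either control group. Nupr1, with an SD of 1.0, was nearest to Abca8b (0.538), Rab11fip4 (0.585) and Ephx1 (0.612). Trib3 (SD 0.628) was nearest to Serpina6 (0.378), Cebpg (SD 0.260) to Xpot (0.147), which is 1 of the ATF4 targets above, and Ppp1r15a (SD 0.332) to Fnbp1 (0.179). Atf4 (SD 0.195) was nearest to Esrp2 (0.12), Cebpb (0.207) to Cmpk1 (0.151), Ddit3 (0.290) to Nfkb1 (0.198), Stbd1 (0.300) to Klf13 (0.210) and Atf3 (0.606) to Arsa (0.433).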

How the data were processed

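RNA of 24 libraries was analysed from 2 deposited tables. Per the file headers, 1 holds raw read counts per Ensembl gene and the other a normalized signal that the authors deposited, checked to equal the counts divided by a size factor for each library (0.745 to 1.32). Counts entered the fits, and the normalized signal served as another scale for the exact permutation tests. How RNA was selected, the strand, the aligner and the build are not given in the sources. Counts were fitted with edgeR 4.0.16 in R 4.3.3 (TMM scaling, filterByExpr, 1 mean per group over 24 libraries, quasi-likelihood test). This left 13441 of 15161 genes and 99.93% of the reads. Benjamini-Hochberg adjustment ran within each of 5 comparisons. An SE is the size of the log2 fold change over the root of its F. For log2 CPM the prior count was 2. The exact tests were two-sided. Depth sets the precision of low genes. Exon lengths and overlaps came from GENCODE M21 (GRCm38), promoters from RefSeq, and symbols of 2119 genes from the reference table.

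Alternatives were the scaling (DESeq2 size factors, upper quartile), the filter on low counts (none, or at least 1 CPM throughout a group), a surrogate variable from sva 3.50.0, other tests (the Wald test of DESeq2 1.42.0, and voom with quality weights in limma 3.58.1), a fit restricted to the groups compared, the stricter threshold of 0.01, and leaving out each library. After the data were seen, list counts without C_MR_3438 were added. The code was tested on simulated counts. The text names the 10 genes, the 4 genes with the smallest p of each list per comparison, the 3 most similar genes, flagged libraries, and genes said to be chosen otherwise; 1 gene that this rule names is not reported here. Members and lists were chosen with earlier results of these data known. Cebpa, Dnajc3, Gabarapl1 and Alb stand in more than 1 list. The main results use each of the 24 libraries, and 0 per-sample columns were unused.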

Additional observations from a re-analysis of the deposited data

Results flagged for a closer look

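Of the 40 sets of 6 libraries looked at, 1 for each gene and group, 2 held a library far from the others by Dixon's ratio of the gap to the whole range (95% critical value for 6 libraries), and chance flags about 1 in 20 such sets. In casein control, C_C_3407 held 344.5 CPM of Atf5, against 282 CPM in the next library (ratio 0.629). In elemental control, E_C_3418 held 4.63 CPM of Ppp1r15a, against 6.85 CPM in the next library (ratio 0.646), and it was the library with the fewest reads, 13.5 M.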

How the results depend on the processing

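Of 1635 values of the 10 genes under 33 alternatives, 1620 kept their direction where called and their side of the threshold, 10 were no longer called, 5 became called and 0 called values reversed. The 10 were Cebpg with elemental MR when any of 7 libraries was dropped and at an adjusted p under 0.01, and Trib3 (0.70) and Ppp1r15a (0.31) with casein MR and 1 surrogate variable. The 5 concern Atf4 and Atf5 as given above. With 1 surrogate variable, 2052 genes and 2 of the 10 were called with casein MR, against 3137 and 4 without, 193 genes for the difference of the MR effects (315) and 545 between the MR diets (873). The control diets, with 14 genes called, gave 89 with the DESeq2 Wald test, 3 with limma-voom, 7 with the groups compared alone and 5 (without E_C_3428, C_C_3421 or C_C_3436) to 33 (without C_C_3407) when 1 library was left out. Between the MR diets, 1 of the 10 was called with limma-voom, and 0 to 1 when 1 library was left out. At an adjusted p under 0.01, 974 genes were called with elemental MR (1803 at 0.05), 153 for the difference, 3 on the control diets and 450 between the MR diets. The cause of these shifts was not tested. No paired analysis was possible because the libraries of different groups share no replicate numbers. Depth limits Atf3, with 5 to 54 reads per library, and intervals of Nupr1 and Trib3 are wide.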
